A study of Mus musculus with 6 samples.

Results

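Solute carriers are membrane proteins that move ions, sugars, amino acids, vitamins, nucleosides and metal ions across the plasma membrane and the membranes of organelles. In heart muscle they take up fuels such as lactate and carnitine, set intracellular pH together with chloride and phosphate, and supply amino acids for protein synthesis. Messenger RNA of these genes was measured by RNA sequencing in the myocardium of hypertrophic mouse hearts. The members described here are protein-coding genes with a symbol of the Slc type and a deposited level of at least 1 FPKM (fragments per kilobase of transcript and megaread of library) in at least 3 of 6 libraries. The mitochondrial Slc25 family and 8 genes (Slc2a1, Slc2a4, Slc8a1, Slc27a1, Slc4a1, Slc6a8, Slc11a2 and Slc40a1) were left out by name. This left 112 members of 54532 genes in the table, out of 371 protein-coding rows with such a symbol, of which 47 belonged to Slc25 and 204 were below the level threshold, 58 of them with no reads in any library.

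One group of 3 libraries came from hearts given the adeno-associated virus AAV9 with anti-miR-199a tough decoys (TuDs). These are RNAs that trap a microRNA so that it cannot reach its target transcripts. The control group of 3 libraries came from hearts given AAV9 with EGFP, a green fluorescent protein. All came from wild type C57BL/6 mice of 18 weeks. The labels do not give the sex, the way hypertrophy was produced or the cells in which the virus was active. They also do not say whether each library is a separate animal, so p-values measure the spread between these libraries. Each n given for TuD or control hearts counts libraries.

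The members were chosen by their deposited FPKM over the 6 libraries, so their being expressed is not a result. Members just above it, by the third-highest FPKM over the libraries, included Slc7a7 at 1.03 and Slc39a7 at 1.09, and the nearest genes below it were Slc46a1 at 0.881, Slc29a3 at 0.859 and Slc35e2 at 0.858. Slc22a3, Slc39a7, Slc16a6, Slc37a2 and Slc35d1 passed it through the control libraries alone, so these 5 had to be lower in TuD hearts. The name of the set went against textbook knowledge at 5 genes at least. Slc8b1 encodes the sodium-calcium exchanger of the mitochondrial inner membrane, and Slc9a3r1, Slc9a3r2, Slc7a6os and Slc4a1ap encode proteins that are named after a carrier but do not transport solutes.

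The microRNA that the decoys are directed at has 2 mature forms in mouse, each made from the genes Mir199a-1 on chromosome 9 and Mir199a-2 on chromosome 1. Their sequences are shown because the site counts given with the results rest on their seeds (RefSeq, GRCm38.p6, written 5′ to 3′). Capitals mark the seed, bases 2 to 8.
mmu-miR-199a-5p: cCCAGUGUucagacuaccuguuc
mmu-miR-199a-3p: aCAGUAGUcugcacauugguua

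Among the members, 4 had a match to the 5p seed followed by A, a site of 8 bases, in the longest 3′ UTR of the GENCODE M21 annotation (GRCm38). These sites are shown on the transcript strand because all 4 genes were lower in TuD hearts (Slc22a3 had to be, by the level threshold), and capitals mark the 8 bases. They were thus chosen by outcome. Another 4 members, Slc4a3, Slc39a10, Slc7a5 and Slc48a1, had a site of 8 bases for the 3p seed. None of those passed in either direction, and their sites are not shown. The Slc35e1 site lies at chr8:72481549-72481556 on the minus strand, the Slc22a3 site at chr17:12420223-12420230 on the minus strand, the Slc43a2 site at chr11:75572587-75572594 on the plus strand, and the Slc45a4 site at chr15:73581738-73581745 on the minus strand.
Slc35e1: agcaagtatgaACACTGGAatggatgagac
Slc22a3: ctatgtttgcaACACTGGAgaagatgtgtg
Slc43a2: tgcccttcaccACACTGGAgcccatacttc
Slc45a4: tggtacattccACACTGGAgggcagggcgc

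More carriers were lower than higher in TuD hearts. By limma with adjustment over all 10460 tested genes, at an adjusted p threshold of 0.05, 4 of 112 members were higher in TuD hearts (3.57%), where 15.0% of all tested genes were. Of the members, 33 were lower (29.5%), where 14.3% of all tested genes were. The other 75 did not pass. The median log2 fold change (TuD minus control, on normalised FPKM plus 0.5) was -0.18 over the members and +0.01 over all tested genes, and 77 of 112 members were negative. Without the 5 genes that entered through the control libraries alone, 4 of 107 were higher and 30 were lower.

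The same direction appeared when libraries were set side by side without a model. In 12 members each of the 3 TuD libraries was above each of the 3 controls (10.7% of members), against 23.5% of all tested genes. In 44 members each of the 3 TuD libraries was below each of the 3 controls (39.3% of members), against 24.4% of all tested genes. Without the 5 genes that entered through the controls alone, these were 12 (11.2%) and 39 (36.4%) of 107 members. The median over the members of each TuD library minus the mean of the controls was -0.20, -0.16 and -0.19 on the log2 scale in TuD replicates 1, 2 and 3, so no single TuD library set it. The members took 0.409%, 0.386% and 0.429% of the reads in TuD libraries and 0.503%, 0.553% and 0.4998% in control libraries, and these ranges did not overlap. Their summed normalised FPKM differed less in proportion, at 966, 915 and 925 in TuD libraries and 992, 1065 and 1002 in control libraries. No such share of reads was set beside it for other genes. Myocardium holds several cell types, and in such bulk samples fewer cells of a type and less RNA per cell cannot be told apart.

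**Figure D1:**
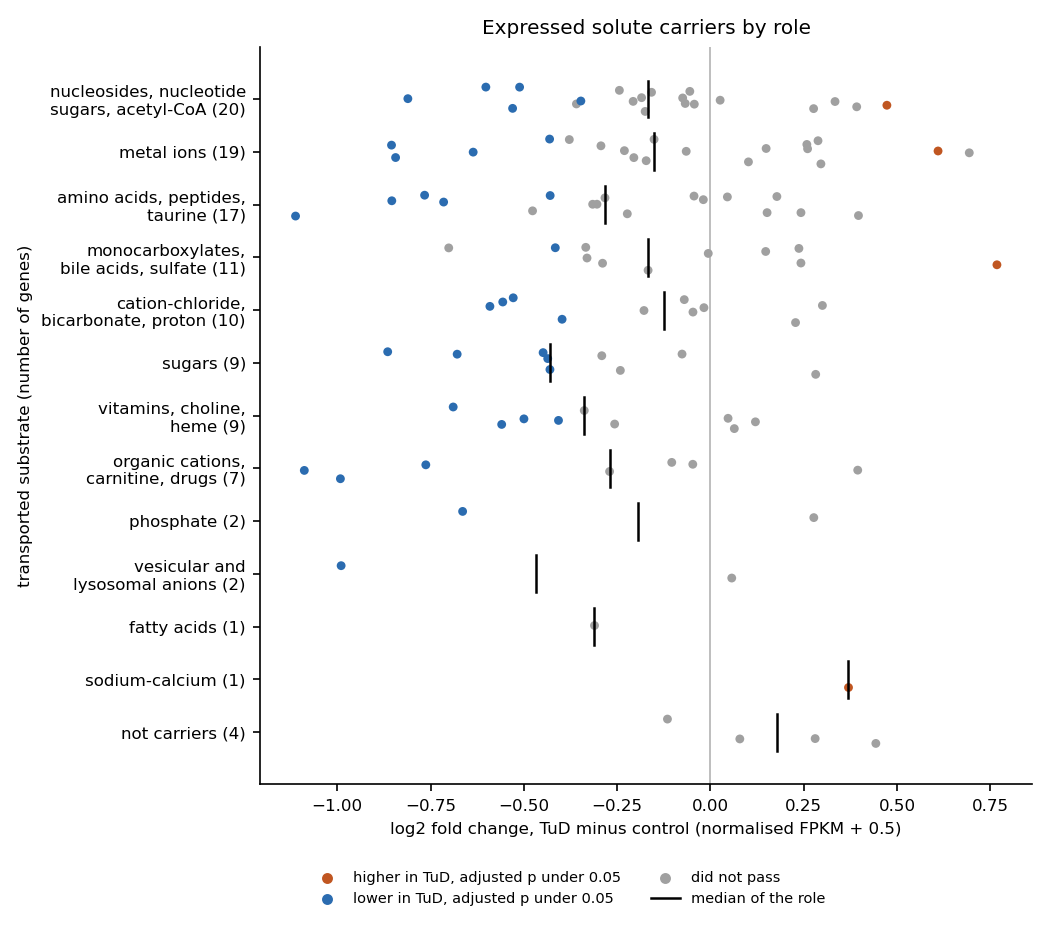
Log2 fold change (x axis, TuD minus control, on normalised FPKM plus 0.5) of each of the 112 genes, in rows by the substrate the encoded protein moves, with a black line at the median of each row. Orange points passed the test as higher in TuD (4 genes), blue points as lower (33 genes), and grey points did not pass (75 genes).

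Several facts of the libraries moved with the groups. Depth was 15.2 to 16.7 M reads (M, megareads) in TuD libraries and 18.0 to 18.2 M reads in control libraries. Transcripts of Y-linked genes summed to 0.0254, 0.00711 and 12.5 FPKM in TuD replicates 1, 2 and 3. In the controls they summed to 8.32 to 9.59, so TuD replicates 1 and 2 stand apart from the other 4 libraries. Sex is not in the labels, and libraries nearly without these transcripts were in the TuD group only. A difference in sex and the treatment therefore cannot be told apart in full. Across all tested genes, log2 fold change fell with gene length (r = -0.39 over 10460 genes, which share the 6 libraries and are not independent), and over the members r was -0.18 (n = 112). The median gene length was 4262 bases over the members and 3852.5 bases over all tested genes.

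The counts of members were read again with each of these. After a correction of each library for gene length, 7 members were higher (6.25%, against 11.4% of all tested genes) and 28 were lower (25%, against 12.7% of all). Of the 33 members lower without the correction, 27 stayed lower, Slc39a14, Slc45a4, Slc38a10, Slc44a2, Slc9a8 and Slc35f6 no longer passed, and the haem carrier Slc48a1 newly passed. With the presence of Y-linked transcripts as a covariate, the estimate rests on TuD replicate 3 as the TuD library that has them. Then 1 member was higher (0.893%, Slc35b1, against 6.22% of all tested genes) and 10 were lower (8.93%, against 5.06% of all). Among the 10 were Slc36a2, Slc22a3, Slc22a23, Slc17a7, Slc36a1, Slc35e1, Slc38a7, Slc12a7 and Slc29a2. In this fit all 33 estimates stayed negative, between -1.42 and -0.17. That sign was fixed in advance, because TuD replicate 3 was below every control library in each of the 33. Of these estimates, 18 were smaller in size than without the covariate. Among the members whose call ended in this fit, the estimate was -0.41 for Slc20a2 (-0.66 without the covariate), -0.37 for Slc35c1 (-0.60), -0.33 for Slc46a3 (-0.50), -0.25 for Slc38a10 (-0.43) and -0.17 for Slc2a8 (-0.44). The part of depth, length and the Y-linked difference in the results was not tested beyond these fits.

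**Figure D2:**
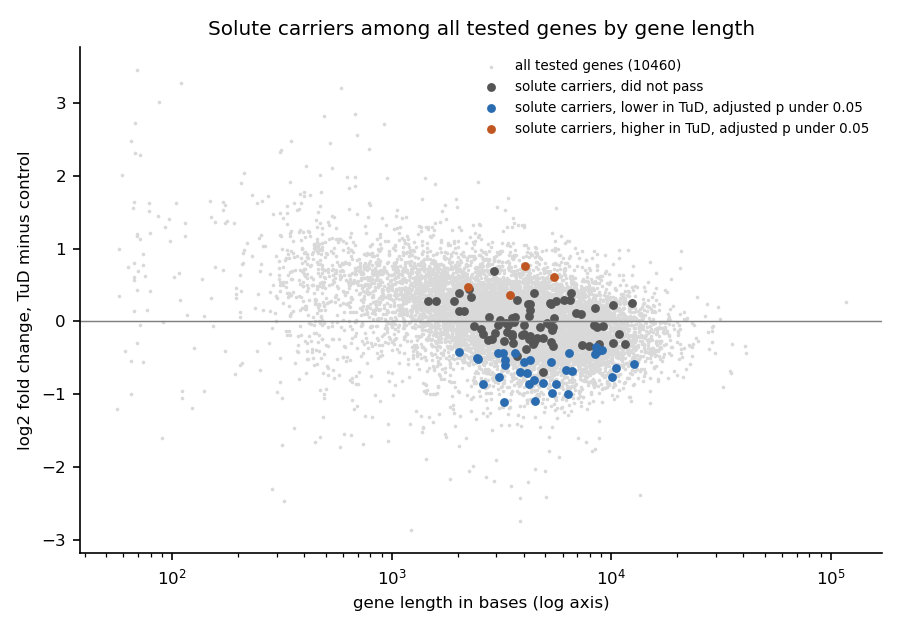
Log2 fold change (y axis, TuD minus control) against gene length in bases (x axis, log scale) for all 10460 tested genes in light grey and for the 112 solute carriers in orange (higher in TuD), blue (lower) and dark grey (did not pass). The cloud of all genes slopes down with length (r = -0.39), and the carriers that were lower lie across the range of lengths.

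The counts in this and the following roles stand beside 15.0% higher and 14.3% lower over all tested genes. Carriers of amino acids and peptides made up 17 members, of which 0 were higher and 5 were lower, with a median log2 fold change of -0.28. Slc36a2 (ENSMUSG00000020264) is a proton-coupled carrier of small neutral amino acids such as glycine and proline. It stood at 3.48, 3.80 and 3.58 normalised FPKM in TuD libraries and 9.62, 6.21 and 9.91 in control libraries. Every TuD value was below every control value, with a log2 fold change of -1.11 ± 0.17 (SE, n = 3 per group, adjusted p = 0.00461). Slc36a1, its relative on the lysosome membrane, stood at 1.55, 1.40 and 1.10 normalised FPKM in TuD libraries and 3.06, 3.17 and 2.32 in control libraries (log2 fold change -0.85 ± 0.16, adjusted p = 0.0074). Slc43a2, a carrier of large neutral amino acids, averaged 1.56 ± 0.234 normalised FPKM in TuD hearts and 3.0 ± 0.463 in control hearts (SD, n = 3 each, adjusted p = 0.00854). These calls, and that of the lysosomal glutamine carrier Slc38a7 (log2 fold change -0.71 ± 0.12, adjusted p = 0.00619), held when any 1 library was left out. Slc38a10 was lower with an adjusted p of 0.0267, and its call ended without TuD replicate 1, TuD replicate 2, control replicate 2 or control replicate 3 (adjusted p 0.0639 to 0.0984).

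The amino acid carriers best known in growing cells did not pass. Slc7a5, the light chain of the leucine carrier LAT1, stood at 2.02, 2.03 and 1.78 normalised FPKM in TuD libraries and 2.44, 3.74 and 2.64 in control libraries, with a log2 fold change of -0.48 (95% interval -0.84 to -0.11) and an adjusted p of 0.0545. Its heavy chain partner Slc3a2 averaged 19.6 ± 5.07 in TuD hearts and 18.9 ± 3.87 in control hearts (adjusted p = 0.883). The glutamine carriers Slc38a2 (log2 fold change -0.30, adjusted p = 0.0798) and Slc1a5 (+0.24, adjusted p = 0.221) had estimates of opposite sign, although that of Slc1a5 was -0.12 after rescaling to TPM. Slc6a6, which takes up taurine, averaged 19.5 ± 2.37 normalised FPKM in TuD hearts and 17.1 ± 1.67 in control hearts (adjusted p = 0.306).

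Carriers of organic cations, carnitine and drugs made up 7 members, of which 0 were higher and 3 were lower, with a median of -0.27. Slc22a3, a carrier of organic cations that include catecholamines, stood at 0.625, 0.521 and 0.613 normalised FPKM in TuD libraries and 1.90, 1.69 and 1.83 in control libraries. The groups were far apart compared with their spread (log2 fold change -1.09 ± 0.13, adjusted p = 0.00241), but it is one of the genes that passed the level threshold through the controls alone, with 123 reads over the TuD libraries and 470 over the controls. Slc22a23, a member of the same family with no established substrate, stood at 1.23, 1.28 and 1.44 in TuD libraries and 3.09, 2.94 and 3.30 in control libraries (log2 fold change -0.99 ± 0.12, adjusted p = 0.00241). Slc22a5, the sodium-dependent carnitine carrier that supplies fatty acid oxidation, stood at 6.15, 4.28 and 6.01 in TuD libraries and 9.02, 10.6 and 9.08 in control libraries. Again no values overlapped (log2 fold change -0.76 ± 0.15, adjusted p = 0.00931), and with the Y-linked covariate the estimate was -0.62 with an adjusted p of 0.0822. The extrusion carrier Slc47a1 averaged 15.0 ± 0.451 in TuD hearts and 15.6 ± 0.917 in control hearts, with an interval of -0.27 to 0.17 for the log2 fold change.

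Sugar carriers made up 9 members, of which 0 were higher and 5 were lower, with a median of -0.43. Slc2a12, a glucose carrier of the GLUT family, stood at 0.959, 1.39 and 1.49 normalised FPKM in TuD libraries and 2.69, 2.58 and 2.87 in control libraries. TuD values stayed below every control value (log2 fold change -0.86, adjusted p = 0.0062), and its adjusted p was 0.06 with the Y-linked covariate. Slc2a8, an intracellular glucose carrier, averaged 7.34 ± 1.31 in TuD hearts and 10.04 ± 0.812 in control hearts (SD, n = 3 each, adjusted p = 0.0465). The sugar phosphate exchangers Slc37a1 (log2 fold change -0.43, adjusted p = 0.0232) and Slc37a2 (-0.68, adjusted p = 0.0116) and Slc45a4 (-0.45, adjusted p = 0.019) were also lower. Slc37a2 stood at 0.868, 0.802 and 0.742 normalised FPKM in TuD libraries and 1.36, 1.57 and 1.86 in control libraries. It passed the level threshold through the controls alone, so its direction was fixed in advance. The call of Slc37a2 ended without control replicate 3 (adjusted p = 0.0517), and that of Slc45a4 without any 1 control library (0.052 to 0.0773). Those of Slc37a1 (adjusted p 0.0517 to 0.083) and Slc2a8 (0.0653 to 0.143) ended without any 1 library other than TuD replicate 3. Slc37a4, the glucose-6-phosphate carrier of the endoplasmic reticulum (adjusted p = 0.0982), and the sugar efflux carrier Slc50a1 (log2 fold change +0.28, adjusted p = 0.144) did not pass.

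Carriers of vitamins, choline and haem made up 9 members, of which 0 were higher and 4 were lower, with a median of -0.34. Slc19a2, which takes up thiamine, averaged 1.46 ± 0.256 normalised FPKM in TuD hearts and 2.66 ± 0.421 in control hearts (adjusted p = 0.0144). Slc5a6, which takes up biotin and pantothenate, stood at 3.53, 3.24 and 2.98 in TuD libraries and 4.87, 6.00 and 4.31 in control libraries (log2 fold change -0.56, adjusted p = 0.02). Slc44a2, a choline carrier (log2 fold change -0.41, adjusted p = 0.034), and Slc46a3, a lysosomal carrier (-0.50, adjusted p = 0.0424), completed the list. The call of Slc19a2 ended without control replicate 2 (adjusted p = 0.0579) or control replicate 3 (0.0553), and that of Slc5a6 without control replicate 2 (0.0688). That of Slc46a3 ended without TuD replicate 1 or any 1 control library (0.0853 to 0.118), and that of Slc44a2 without any 1 library other than control replicate 3 (0.0527 to 0.0997). Slc48a1, a haem carrier of endosomes and lysosomes, had a narrow spread at 28.7, 27.9 and 28.4 in TuD libraries and 32.5, 33.9 and 35.5 in control libraries, with an adjusted p of 0.0664.

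Exchangers of cations with chloride, bicarbonate or protons made up 10 members, of which 0 were higher and 4 were lower, with a median of -0.12. Slc12a7, the potassium-chloride cotransporter KCC4, stood at 19.2, 15.7 and 16.1 normalised FPKM in TuD libraries and 23.4, 28.6 and 25.6 in control libraries (log2 fold change -0.59 ± 0.12, adjusted p = 0.0107). Slc12a4, the related KCC1, averaged 14.2 ± 1.48 in TuD hearts and 20.8 ± 3.40 in control hearts (adjusted p = 0.0281). Neither gene overlapped between the groups, nor did Slc9a8, a sodium-proton exchanger of the Golgi (log2 fold change -0.40, adjusted p = 0.0229). The call of Slc12a4 ended without TuD replicate 1, TuD replicate 3, control replicate 1 or control replicate 2 (adjusted p 0.0553 to 0.102), and that of Slc9a8 without any 1 library other than TuD replicate 3 (0.0508 to 0.0822).

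Within this role the sodium-potassium-chloride cotransporter Slc12a2, which loads cells with chloride, had an estimate of the other sign, at 2.18, 2.13 and 2.01 normalised FPKM in TuD libraries and 1.91, 1.71 and 1.28 in control libraries (log2 fold change +0.30, interval -0.03 to 0.63, adjusted p = 0.149, and an estimate of -0.0039 after rescaling to TPM). Slc4a3, the chloride-bicarbonate exchanger with the highest level in the set, stood at 44.4, 41.3 and 45.1 in TuD libraries and 47.7, 45.4 and 44.2 in control libraries. Its groups overlapped, and the interval of its log2 fold change was -0.29 to 0.15.

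Metal ion carriers made up 19 members, of which 1 was higher and 4 were lower, with a median of -0.15. Of all tested genes 15.0% were higher and 14.3% were lower. Slc41a1 (ENSMUSG00000013275), a magnesium carrier that exports the ion in exchange for sodium, stood at 12.0, 10.2 and 14.3 normalised FPKM in TuD libraries and 25.1, 20.7 and 20.6 in control libraries. The gap between the groups was wider than the spread in either (log2 fold change -0.84 ± 0.14, adjusted p = 0.00604). With the Y-linked covariate its estimate was -0.61 with an adjusted p of 0.0543. Its relative Slc41a3 stood at 38.6, 14.7 and 31.5 in TuD libraries and 15.5, 12.7 and 20.8 in control libraries, a wide spread with overlapping groups (adjusted p = 0.148).

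Zinc carriers showed calls in both directions. Slc30a4, which moves zinc into vesicles, stood at 1.52, 1.30 and 1.5 normalised FPKM in TuD libraries and 1.05, 0.554 and 0.749 in control libraries (log2 fold change +0.61 ± 0.17, adjusted p = 0.0316). Slc39a14, an importer of zinc, iron and manganese, stood at 5.82, 4.54 and 5.54 in TuD libraries and 7.34, 11.2 and 7.38 in control libraries (log2 fold change -0.64 ± 0.18, adjusted p = 0.0296). Slc30a6, a zinc carrier of the Golgi, was lower as well (log2 fold change -0.43, adjusted p = 0.0324). Slc39a7, which releases zinc from the endoplasmic reticulum, stood at 0.404, 0.160 and 0.950 in TuD libraries and 1.21, 1.41 and 1.07 in control libraries, on 63 reads against 184 (adjusted p = 0.0467), and it shares 2084 exon bases with Gm20427 on the same strand. Slc39a7 also passed the level threshold through the controls alone, so its direction was fixed in advance. Each of these 4 zinc carrier calls ended when some single libraries were left out. That of Slc30a4 ended without any 1 library other than control replicate 1 (adjusted p 0.0551 to 0.1), and that of Slc39a7 without any 1 other than TuD replicate 3 (0.0871 to 0.134), with an estimate of -0.25 under the Y-linked covariate. That of Slc39a14 ended without TuD replicate 1, TuD replicate 2 or control replicate 2 (0.0513 to 0.0864), and that of Slc30a6 without TuD replicate 1, TuD replicate 3, control replicate 2 or control replicate 3 (0.0612 to 0.118). The zinc exporter Slc30a1 (log2 fold change +0.26, adjusted p = 0.208) and the importer Slc39a1 (34.3 ± 2.92 in TuD hearts and 35.8 ± 0.962 in control hearts) did not pass.

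Carriers of nucleosides, nucleotide sugars and acetyl-CoA made up 20 members, of which 1 was higher and 5 were lower, with a median of -0.17. Slc35e1 (ENSMUSG00000019731), a member of the nucleotide sugar carrier family with no established substrate, stood at 18.5, 16.1 and 19.8 normalised FPKM in TuD libraries and 29.0, 37.4 and 30.3 in control libraries (log2 fold change -0.81 ± 0.13, adjusted p = 0.00527). Slc35b1, which exchanges ATP for ADP across the membrane of the endoplasmic reticulum, went the other way at 15.7, 16.9 and 17.1 in TuD libraries and 12.3, 11.4 and 11.7 in control libraries. Its spread was small in both groups (log2 fold change +0.47 ± 0.09, adjusted p = 0.00973), and its call held without any 1 library. Slc29a2, an equilibrative nucleoside carrier, averaged 4.25 ± 0.784 in TuD hearts and 6.21 ± 0.533 in control hearts (adjusted p = 0.0328), while the related adenosine carrier Slc29a1 averaged 17.3 ± 2.92 in TuD hearts and 17.7 ± 1.69 in control hearts (interval -0.36 to 0.28). Slc35c1, the GDP-fucose carrier (log2 fold change -0.60, adjusted p = 0.0252), Slc35a4 (-0.53, adjusted p = 0.0142) and Slc35f6 (-0.35, adjusted p = 0.0362) were also lower. The call of Slc35a4 ended without control replicate 2 (adjusted p = 0.0574), and that of Slc29a2 without TuD replicate 2 or any 1 control library (0.0512 to 0.0991). Those of Slc35c1 (0.0517 to 0.0903) and Slc35f6 (0.0611 to 0.123) ended without any 1 library other than TuD replicate 3.

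Carriers of monocarboxylates, bile acids and sulfate made up 11 members, of which 1 was higher and 1 was lower, with a median of -0.17. Of all tested genes 15.0% were higher and 14.3% were lower. Slc26a10, a member of the anion exchanger family, stood at 11.6, 9.38 and 7.31 normalised FPKM in TuD libraries and 5.57, 5.29 and 4.90 in control libraries (log2 fold change +0.77 ± 0.16, adjusted p = 0.0113). With the Y-linked covariate its estimate was +0.44 with an adjusted p of 0.108. It shares 715 exon bases with B4galnt1 on the opposite strand, which averaged 0.563 in TuD hearts and 0.517 in control hearts, and the strand setting of the counting is not given in the sources used here. Slc16a1, the lactate and pyruvate carrier MCT1, had the highest level of any true carrier in the set at 58.8, 57.7 and 66.5 in TuD libraries and 80.1, 81.3 and 63.5 in control libraries. Its groups overlapped through 1 library on each side (log2 fold change -0.29 ± 0.13, adjusted p = 0.12). Slc16a3, the related MCT4, averaged 1.31 ± 0.208 in TuD hearts and 1.03 ± 0.134 in control hearts (adjusted p = 0.246). Slc10a3 was the lower gene of this role (log2 fold change -0.42, adjusted p = 0.0474), and its call ended without any 1 library other than TuD replicate 1 (adjusted p 0.0705 to 0.13).

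The remaining roles held few members each. Slc20a2, a sodium-phosphate cotransporter, stood at 21.3, 21.5 and 28.0 normalised FPKM in TuD libraries and 36.2, 40.1 and 36.1 in control libraries (log2 fold change -0.66 ± 0.13, adjusted p = 0.00897), while the related Slc20a1 had an estimate of +0.28 (adjusted p = 0.26). Slc17a7, known in neurons as a vesicular glutamate carrier, stood at 4.05, 3.07 and 2.06 in TuD libraries and 5.75, 8.48 and 5.30 in control libraries (log2 fold change -0.99 ± 0.24, adjusted p = 0.0177, and 0.06 without control replicate 2). Slc8b1, the mitochondrial sodium-calcium exchanger, stood at 3.84, 3.49 and 3.94 in TuD libraries and 2.86, 2.68 and 2.86 in control libraries (log2 fold change +0.37 ± 0.11, adjusted p = 0.0353). Its groups did not overlap, but the call ended without any 1 library other than TuD replicate 2 (adjusted p 0.0635 to 0.113). The fatty acid carrier Slc27a4 averaged 8.14 ± 1.21 in TuD hearts and 10.2 ± 1.41 in control hearts (adjusted p = 0.138). Of the 4 proteins that are not carriers none passed, and the scaffold Slc9a3r2 had the highest level of the set at 151, 150 and 92.8 in TuD libraries and 80.9, 107 and 96.2 in control libraries.

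**Figure D3:**
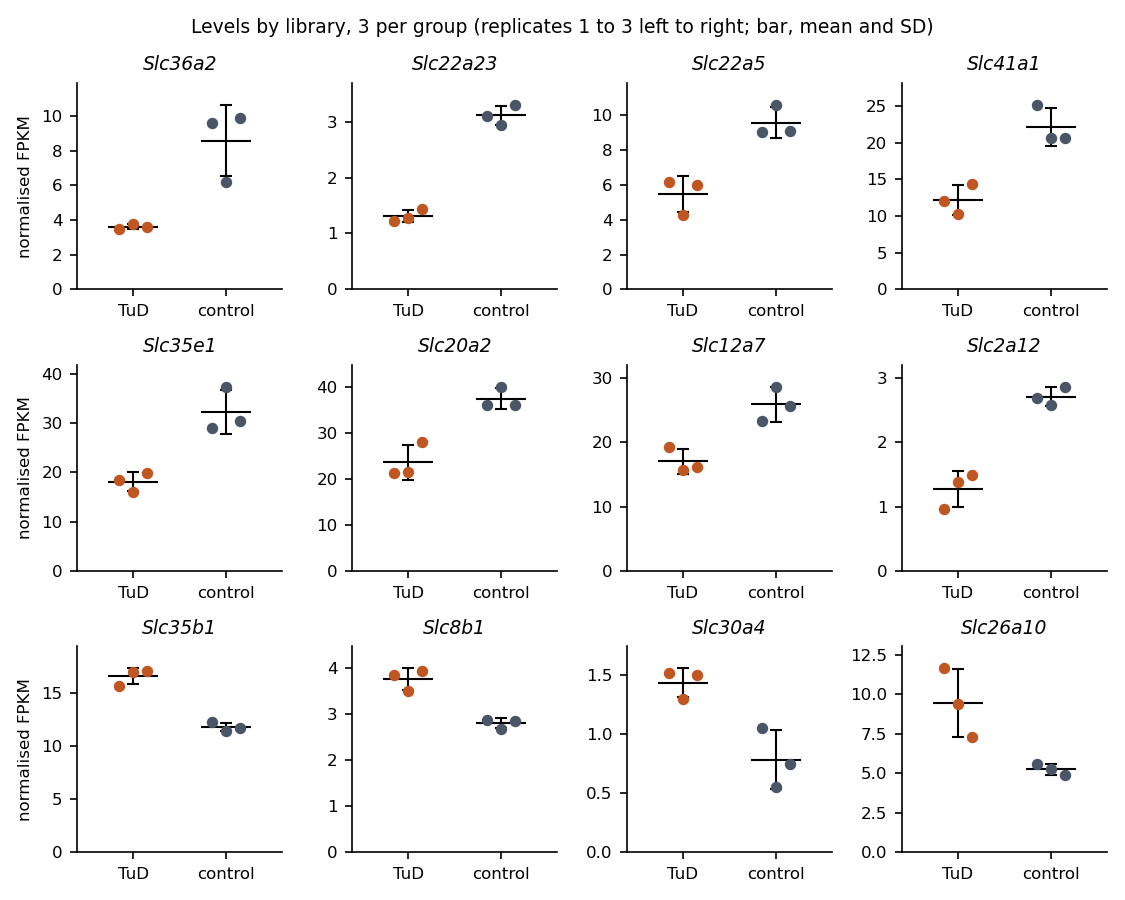
Normalised FPKM (y axis, from 0) of 12 solute carriers in each library, with the 3 TuD libraries on the left and the 3 control libraries on the right of each panel, and the mean and SD as a bar. In the first 8 genes, from Slc36a2 to Slc2a12, every TuD value lies below every control value, and in Slc35b1, Slc8b1, Slc30a4 and Slc26a10 every TuD value lies above.

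Of the 37 calls among members, 15 held when any 1 library was left out, and the other 22 ended without at least 1 library. Control replicate 2 ended the most, 21 calls, and TuD replicate 3 the fewest, 6. Without TuD replicate 3, the presence of Y-linked transcripts and the group coincide, so a call that held in that fit cannot separate them. Rescaling to TPM, where each library sums to the same total, shifted the median over all tested genes to -0.36, and relative to that shift the members' median was -0.21. Under TPM, all 33 lower members stayed lower past the threshold, and 24 members with positive estimates that did not pass became negative. Slc8b1 (log2 fold change +0.03), Slc35b1 (+0.10) and Slc30a4 (+0.44) no longer passed and Slc26a10 did. Exon bases were shared with another gene by 34 members, of which 2 were higher (5.88%) and 14 were lower (41.2%). Of all members 3.57% were higher and 29.5% were lower, and of all tested genes 15.0% and 14.3%. The shares over all tested genes with shared exon bases were not computed.

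Some members lie close together on a chromosome. Slc36a2 and Slc36a1 are 19.3 kb apart on chromosome 11 and were both lower. Slc22a5 and Slc22a4 lie 91.5 kb apart on the same chromosome, and Slc22a4, a related organic cation carrier, averaged 1.5 ± 0.364 normalised FPKM in TuD hearts and 1.63 ± 0.223 in control hearts (adjusted p = 0.679). Log2 ratios of neighbouring genes were taken on normalised FPKM plus 0.5. The added 0.5 shifts them where a gene is low, as Slc22a4 is, and ratios of the plain levels were not tested. The log2 ratio of Slc22a5 to Slc22a4 was 1.58, 1.11 and 2.04 in TuD libraries and 2.29, 2.21 and 2.21 in control libraries. All TuD ratios were below the control ratios, with a two-sided exact permutation p of 0.1, the smallest that 3 libraries against 3 can give. The ratio of the copper carrier genes Slc31a2 to Slc31a1 gave the same p of 0.1 in an exact permutation test, with a difference of +0.35. The other 3 pairs within 100 kb gave exact permutation p-values of 0.3 to 0.8, unadjusted over the 5 pairs.

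**Figure D4:**
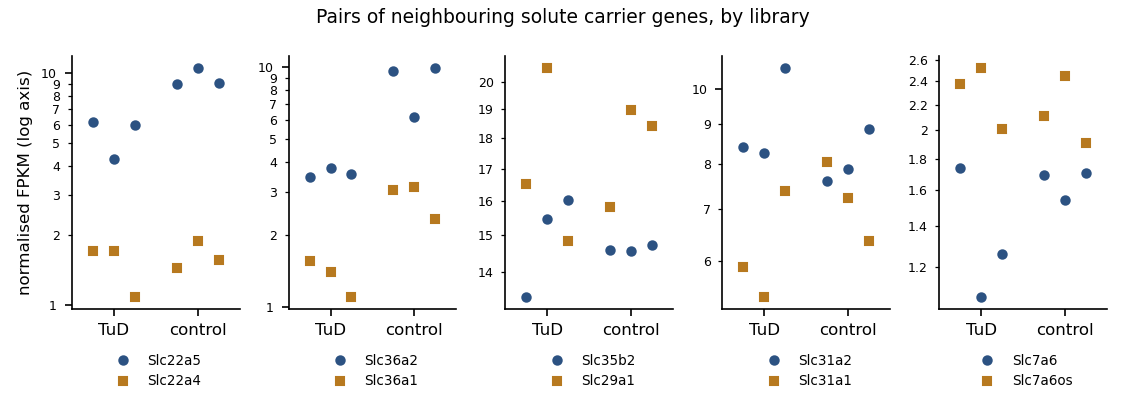
Normalised FPKM (y axis, log scale) of 5 pairs of solute carrier genes that lie within 100 kb of each other, with the 3 TuD libraries on the left and the 3 control libraries on the right of each panel. Slc22a5 is lower in TuD libraries while Slc22a4 overlaps between the groups, and Slc36a2 and Slc36a1 are both lower.

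Promoters of 3 of these genes, Slc36a1, Slc22a5 and Slc22a4, are shown beside their values, and that of Slc36a2 was not matched. Each is 250 bases before to 50 bases after the start of a RefSeq transcript (GRCm38.p6), on the strand of the gene, and capitals mark the E-box CACGTG, a motif bound by basic helix-loop-helix factors. Slc36a1 lies at chr11:55204090-55204389 on the plus strand, Slc22a5 at chr11:53891654-53891953 on the minus strand and Slc22a4 at chr11:54028055-54028354 on the minus strand.
Slc36a1: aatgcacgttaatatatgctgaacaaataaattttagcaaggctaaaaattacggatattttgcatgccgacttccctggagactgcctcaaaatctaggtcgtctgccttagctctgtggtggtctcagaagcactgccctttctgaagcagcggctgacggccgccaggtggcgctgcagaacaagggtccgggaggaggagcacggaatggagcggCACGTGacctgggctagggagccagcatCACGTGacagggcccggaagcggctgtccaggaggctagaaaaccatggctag
Slc22a5: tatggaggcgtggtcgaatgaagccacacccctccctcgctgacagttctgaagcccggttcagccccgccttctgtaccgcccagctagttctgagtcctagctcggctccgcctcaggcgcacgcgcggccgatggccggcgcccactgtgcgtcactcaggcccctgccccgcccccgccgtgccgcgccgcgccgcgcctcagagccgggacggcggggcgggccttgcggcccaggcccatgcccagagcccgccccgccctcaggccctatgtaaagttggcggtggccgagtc
Slc22a4: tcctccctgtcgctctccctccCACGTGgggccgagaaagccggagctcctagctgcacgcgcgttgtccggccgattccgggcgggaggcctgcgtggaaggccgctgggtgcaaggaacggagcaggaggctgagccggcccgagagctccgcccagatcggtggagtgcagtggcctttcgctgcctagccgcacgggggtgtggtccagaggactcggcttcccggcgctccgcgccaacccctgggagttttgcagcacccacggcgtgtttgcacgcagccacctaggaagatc

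Promoters were matched for 86 members, 120 promoters in all. The E-box, which reads the same on both strands, was in 15 of them (12.5%) and in 7.15% of all 32851 promoters of this length. These 32851 were not limited to expressed genes, as the members are, so the shares are not of like sets. Of the 14 genes with one, Slc12a7, Slc36a1 and Slc38a7 were lower in TuD hearts and none was higher, where 29.5% of all members were lower and 3.57% were higher. The cyclic AMP response element TGACGTCA and the composite element TGATGNAAT, searched on both strands, were in 0 member promoters and in 1.79% and 0.965% of all promoters.

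Sites for miR-199a were counted in the 3′ UTRs of members and of all tested genes. A match to bases 2 to 8 of either form was in 21 of 112 members (18.8%) and in 22.4% of 9552 tested genes with an annotated 3′ UTR. For the 5p form, 16 members had a site, of which 0 were higher and 7 were lower (median log2 fold change -0.39), and of the 96 without one 4 were higher and 26 were lower (median -0.17). Without the genes that entered through the controls alone, 5 of 14 members with a 5p site were lower (median -0.33), and of 93 without one 4 were higher and 25 were lower (median -0.16). For the 3p form, 9 members had a site and 0 of them passed in either direction. Of all tested genes with a 3p site, 9.07% were higher and 16.4% were lower, and 9 members are too few to set against these shares. Among all tested genes with a 5p site, 8.37% were higher and 20.3% were lower, against 14.3% and 13.8% of those without. Among all tested genes the median 3′ UTR was 2321 bases with a 5p site and 1088 bases without, and the part of that length in the difference was not tested. All 4 members with the 8-base 5p site shown above were lower, but the direction of Slc22a3 was fixed by the level threshold, which leaves Slc35e1, Slc43a2 and Slc45a4. Of all tested genes with such a site 20.8% were lower, and a match of letters does not show that the site is used.

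Proteins that work with these carriers gave calls in both directions, where 15.0% of all tested genes were higher and 14.3% were lower. Of 8 tested Na,K-ATPase subunits and their FXYD regulators, which maintain the sodium gradient many carriers use, 2 were higher and 3 were lower. The beta subunit Atp1b1 stood at 45.0, 32.0 and 55.0 normalised FPKM in TuD libraries and 109, 108 and 80.9 in control libraries (log2 fold change -1.19 ± 0.21, adjusted p = 0.00622). The regulator Fxyd5 had a log2 fold change of +1.02 (adjusted p = 0.00545). Of 10 tested partner proteins and kinases, 0 were higher and 3 were lower. These were Oxsr1, a kinase that phosphorylates cation-chloride cotransporters (log2 fold change -0.52, adjusted p = 0.0163), Wnk4, which acts upstream of it (-0.59, adjusted p = 0.042), and Chp1, which binds sodium-proton exchangers (-0.43, adjusted p = 0.029).

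Among genes that respond to amino acid shortage or to zinc, 10 were tested, 2 were higher and 1 was lower. The zinc-binding metallothionein Mt1 stood at 458, 409 and 306 normalised FPKM in TuD libraries and 217, 269 and 214 in control libraries (log2 fold change +0.73, adjusted p = 0.0168). Chac1, a glutathione-degrading enzyme induced by amino acid shortage, was higher (log2 fold change +0.53, adjusted p = 0.0305), and Sesn2, a leucine sensor, was lower (-0.47, adjusted p = 0.0488). Carriers of solute carrier type under other names gave 2 higher (Mpc2 and Mtch2) and 1 lower (Flvcr2) of 24 tested. Over all tested genes 15.0% were higher and 14.3% were lower, the shares to set beside both lists.

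Markers of cell types moved with the groups in part, where 15.0% of all tested genes were higher and 14.3% were lower. Of 7 cardiomyocyte markers 4 were higher in TuD hearts, with a summed level of 25220 to 31438 normalised FPKM in TuD libraries and 23456 to 24686 in control libraries. Actc1 (log2 fold change -0.21), Ryr2 (-0.28) and Myh6 (+0.05) did not pass. Of 5 erythroid markers 2 were higher (1374 to 3292 in TuD libraries and 1142 to 1604 in control libraries), and of 6 macrophage markers none passed (146 to 281 in TuD libraries and 137 to 159 in control libraries). Of 6 fibroblast markers 1 was higher and 1 was lower (131 to 182 in TuD libraries and 136 to 146 in control libraries). Endothelial markers had 1 of 6 higher (174 to 259 in TuD libraries and 182 to 219 in control libraries), and mural cell markers had 1 of 4 tested higher (124 to 239 in TuD libraries and 124 to 168 in control libraries). Both tested adipocyte markers, Fabp4 and Cfd, were higher (125 to 160 for the summed list in TuD libraries and 61.6 to 73.8 in control libraries). Nearly all of this sum was Fabp4, at 133, 156 and 122 in TuD libraries and 60.8, 67.0 and 73.7 in control libraries. Adipoq, Plin1 and Lep were under 1 normalised FPKM in all libraries. The part of these shifts in the carrier results was not tested, nor was the part of gene length in the marker levels.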

How the data were processed

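Total RNA from frozen hearts was sequenced as 6 libraries with an NEBNext Ultra kit, per the labels' protocols. The submitters' processing notes name HISAT2 2.0.5, featureCounts 1.5.0-p3 and the build mm10. The authors deposited FPKM values per gene, with gene length. FPKM times length gave whole reads, within 0.05, for 100% of values above 0. Each library was scaled by a median-of-ratios factor (normalised FPKM). Genes at a deposited FPKM of 1 or more in at least 3 libraries were tested with limma 3.58.1 (R 4.3.3; lmFit, eBayes with trend) on log2(value + 0.5), two-sided, with Benjamini-Hochberg adjustment over 10460 genes at 0.05. A fold change on this scale understates the change of low genes. Members, role lists and other lists were chosen with earlier results of these data known. Named members were the 10 highest and 10 lowest past the threshold with groups that did not overlap, the 3 most abundant of each role, and genes of prior interest in heart (Slc5a3 among them was below the level threshold). Other called members, and Slc22a4, Slc41a3 and Slc9a3r2 in the detail given, were named after their values were seen. Of other lists up to 3 genes by p were named. Some members and genes that this rule takes are not reported here. All 112 members matched GENCODE M21. The scripts were tested on simulated data. Alternatives changed the scaling, the pseudocount, the filter or the variance model, or used limma-voom on recovered reads, a replicate block, length and Y-linked corrections, and leaving out each library. Other tools were Python 3.11.15, numpy 2.4.6, pandas 2.3.3 and matplotlib 3.10.9.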

Additional observations from a re-analysis of the deposited data

How the results depend on the processing

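Under the alternatives run, none of the 37 called members changed sign, and the members' median stayed negative. For the called members the sign was fixed in advance in many of these fits. Their groups did not overlap, so neither leaving out a library nor the Y-linked covariate could change it. The replicate block, the filter and the variance model leave the estimates of these members as they were. Members that had not passed did change sign, 24 of them under TPM, 9 with the length correction (Slc4a3 to +0.08 among them), 8 with the Y-linked covariate (Slc9a3r2 to -0.02 among them), 1 each with quantile normalization and limma-voom, and 1 to 12 when a library was left out. Rescaling to TPM gave 438 higher and 4202 lower of all tested genes, 1 higher and 69 lower members, and a median of -0.56. Testing all 22702 genes with any value gave 1010 higher and 956 lower genes, 2 higher and 17 lower members; more genes enter the adjustment. The length correction gave 7 higher members and a median of -0.16. The Y-linked covariate gave 651 higher and 529 lower genes, 1 higher and 10 lower members. The members' median was -0.22 with a pseudocount of 0.1, -0.22 at FPKM of at least 1 in all 6 libraries (93 members) and -0.24 with limma-voom on recovered reads. Leaving out 1 library gave 892 to 1704 higher and 747 to 1605 lower genes, 2 to 4 higher and 14 to 32 lower members, and a median of -0.20 to -0.16. Fewer libraries give less precision. With the replicate number as a block, 3 members were higher and 25 were lower (14.0% and 11.5% of all tested genes). Same-numbered libraries had correlated deviations of 0.0637, 0.0882 and -0.0554, so the numbers were not taken to pair the samples, and not every library correlated best with its own number. At this depth Slc22a3 and Slc39a7 rest on few reads, and 3 libraries per group limit the precision of every value.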
